A study of Mus musculus with 14 samples.

Results

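Binding of transcription factors (TFs) was described at 8 integrin genes, out of 21774 protein-coding genes in the RefSeq annotation of the mouse genome (GRCm38). The genes were chosen by name. They encode the leukocyte integrin chains (Itgam, Itgax, Itgal and their shared partner Itgb2), the chains of the receptor for VCAM1 and fibronectin (Itga4 and Itgb1) and the chains of the platelet fibrinogen receptor (Itga2b and Itgb3). Itgam encodes CD11b and Itga2b encodes CD41, and both proteins were used as markers to sort the cells. A peak was assigned to a gene when it overlapped the gene span, extended by 20 kb on each side, by at least 1 bp.

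The study mapped TF binding by chromatin immunoprecipitation and sequencing (ChIP-seq) in cells differentiated from mouse embryonic stem cells. All cells came from 1 line of strain 129 that carries a Brachyury GFP reporter. Mesoderm (MES) was sorted as Bry.GFP+ and FLK1- cells, hemangioblasts (HB) as Bry.GFP+ and FLK1+ cells, hemogenic endothelium (HE) as Tie2+, Ckit+ and CD41- cells labelled Bry.GFP+, hematopoietic progenitors (HP) as CD41+ cells, and macrophages (MAC) as CD11b+ cells obtained by differentiating CD41+ cells. The 14 peak lists held C/EBPβ in all 5 stages, PU.1 (encoded by Spi1) and RUNX1 in HP and MAC, GATA2 in HB and HP, GATA1 and GFI1B in HP, and ELK4 in MES. Every group had 1 list and no separate replicate list, so that replicate error is unknown for every value and no test was made. The paper marks the lists of C/EBPβ in MES, HE and HP, GATA2 in HB and RUNX1 in MAC as merged from technical replicates. The lists report binding. Expression was not analysed here, and the labels of the sorted populations were not checked against their markers.

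Integrins are receptors of 1 alpha and 1 beta chain that attach cells to extracellular matrix, to plasma proteins and to other cells. The leukocyte integrins share the chain CD18 and serve adhesion, phagocytosis and migration of white blood cells, and CD11b is the classical surface marker of macrophages and granulocytes. CD41 with its partner CD61 is the fibrinogen receptor of platelets, and in the embryo CD41 also marks the first blood progenitors. PU.1 and C/EBPβ are TFs of the myeloid lineage, and the paper proposes a wider role in development for C/EBPβ. GATA1, GATA2, GFI1B and RUNX1 act in progenitors and in the erythroid and megakaryocytic lineages. RUNX1 also acts in macrophage differentiation, where the paper names Spi1 and Csf1r as its targets.

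The elements below are a selection of those bound in progenitors, chosen for factors other than PU.1, and most HP PU.1 peaks are not among them. They are printed from the GRCm38 reference, 5′ to 3′ on the stated strand, with the consensus words of the factors in capitals in either orientation. The first lies upstream of Itga2b (chr11:102470139-102470288, minus strand, intergenic), was bound by PU.1 and GATA2 in HP and by PU.1 in MAC, and has the PU.1 word GAGGAAGT and the GATA word TGATAAG in capitals. The next lies in an intron of Itgb3 (chr11:104618922-104619071, plus strand), was bound by RUNX1 and GFI1B in HP, and has the RUNX word TGTGGTT in capitals. A pair of short sites lies at Itgax (chr7:128133794-128133817 and chr7:128133837-128133866, plus strand, at an exon and intron boundary of the full-length transcript and in the last exon of shorter ones), where C/EBPβ and PU.1 were both bound in HP and in MAC. Their capitals mark a C/EBP word and 2 PU.1 words. The last of these lies at an exon and intron boundary of Itgb2 (chr10:77551010-77551159, plus strand), was bound by C/EBPβ in both HP and MAC and by PU.1 in MAC, and has a C/EBP word in capitals.
Itga2b upstream element: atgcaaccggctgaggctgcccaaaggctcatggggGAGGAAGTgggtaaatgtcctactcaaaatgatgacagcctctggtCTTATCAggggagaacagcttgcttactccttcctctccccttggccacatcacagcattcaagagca
Itgb3 intronic element: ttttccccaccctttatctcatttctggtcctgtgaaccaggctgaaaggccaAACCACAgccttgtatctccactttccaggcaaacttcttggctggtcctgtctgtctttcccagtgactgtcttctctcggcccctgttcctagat
Itgax C/EBP site: atcattcgTTATGCAAttggggta
Itgax PU.1 sites: caccACTTCCTCctgtaACTTCCTCttgaa
Itgb2 internal element: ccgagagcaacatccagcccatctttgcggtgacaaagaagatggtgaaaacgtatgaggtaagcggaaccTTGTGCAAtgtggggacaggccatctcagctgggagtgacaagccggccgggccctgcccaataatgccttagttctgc

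A second set gives 3 of the 8 elements where PU.1 was bound in HP and again in MAC, with C/EBPβ in MAC. The 3 were chosen because they hold the PU.1 word, and 3 others of the 8, at Itgb2 (763 and 6655 bp from the transcription start site, TSS) and Itgb3 (1296 bp), hold none. The far upstream element of Itgam (chr7:128048829-128048978, plus strand, intergenic) has in capitals the PU.1 word, an AP-1 word (TGANTCA, with N any base) and the GATA word AGATAAG. The capitals mark the PU.1 word alone in the intronic element of Itgam (chr7:128065699-128065848, plus strand) and in the element upstream of Itga4 (chr2:79254730-79254879, plus strand, intergenic).
Itgam far upstream element: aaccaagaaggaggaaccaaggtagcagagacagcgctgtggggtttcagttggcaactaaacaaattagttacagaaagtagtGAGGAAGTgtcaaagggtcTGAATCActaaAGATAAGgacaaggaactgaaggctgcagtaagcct
Itgam intronic element: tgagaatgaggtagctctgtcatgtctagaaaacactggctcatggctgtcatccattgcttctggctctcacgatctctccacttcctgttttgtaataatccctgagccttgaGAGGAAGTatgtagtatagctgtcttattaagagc
Itga4 upstream element: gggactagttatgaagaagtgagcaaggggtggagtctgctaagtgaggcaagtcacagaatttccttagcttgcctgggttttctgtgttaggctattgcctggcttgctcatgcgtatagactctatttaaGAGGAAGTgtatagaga

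The promoter of Itgam is given as the 100 bases before its TSS, on the plus strand (chr7:128062540-128062639), because PU.1 was bound there in MAC. It holds no PU.1 word, and its capitals mark the shorter core GGAA of the ETS factor family on either strand. In the RefSeq promoter table of GRCm38, the PU.1 word was found in the last 100 bases before the start in 1.15% of 32851 entries and the core GGAA in 66.8%, so that the core alone is common.
Itgam proximal promoter: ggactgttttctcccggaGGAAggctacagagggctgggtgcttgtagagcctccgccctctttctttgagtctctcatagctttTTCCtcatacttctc

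The 14 lists held 158488 peaks of 400 bp, between 72 (MAC RUNX1) and 82866 (MAC PU.1) in a list. The authors set the calling threshold by eye for each list, so that the length of a list does not measure an amount of binding, and the sequencing depth was not used here. At the 8 genes 150 peaks were found, of which 15 lay in the windows of both Itgam and Itgax and were counted at both genes, which gave 165 pairs of peak and gene. The nearest coding TSS was that of the integrin gene in 121 of these pairs. Of 112 combinations of gene and list, 30 had at least 1 peak. These fell into 8 lists. In the plot of counts by gene and list, 2 columns from MAC, PU.1 and C/EBPβ, are filled, and those of the early stages are almost empty.

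**Figure D1:**
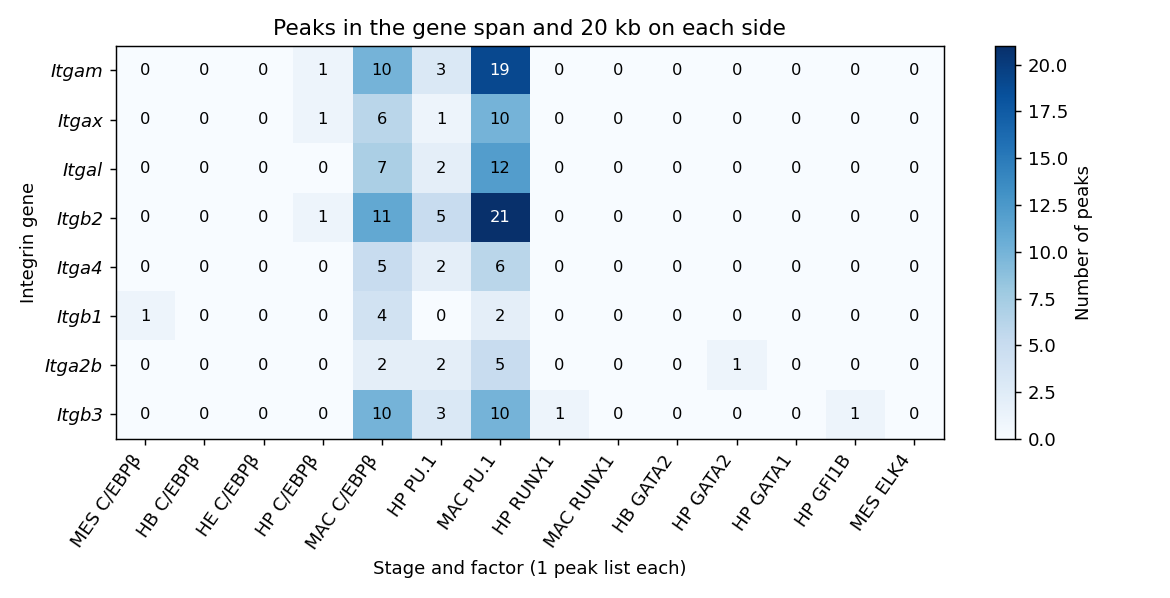
Number of peaks in the span of each integrin gene and 20 kb on each side, with genes in rows and the 14 peak lists in columns, and darker blue for more peaks. The 2 filled columns are MAC C/EBPβ (2 to 11 peaks a gene) and MAC PU.1 (2 to 21 peaks a gene), and HP PU.1 has 0 to 5 peaks a gene.

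C/EBPβ was the factor followed through all stages. In MES it had 1 peak at 1 of the 8 genes (Itgb1), where 6.47% of all coding genes had a peak by the same rule. In HB and in HE it had none at any of the 8, against 4.24% and 0.684% of coding genes. In HP it had 2 peaks, which fell into the windows of 3 genes (Itgam, Itgax and Itgb2), against 14.8% of coding genes. In MAC it had 51 peaks and all 8 genes were bound, against 73.8% of coding genes. A count of 8 genes bound in MAC is therefore close to what most genes show in so long a list, whose length was 55471 peaks against 132 in HE. Among the C/EBPβ lists, the paper gives the loosest calling threshold for MAC and the strictest for HE, so the stages were not called alike. For the lists of MES and HB it gives no enrichment value from its PCR check.

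PU.1 was mapped in HP and MAC. It had 17 peaks in HP, at 7 of the 8 genes (all but Itgb1), where 38.2% of coding genes had a peak. In MAC it had 76 peaks at all 8 genes, against 79.1% of coding genes. The PU.1 list was also the longest of the 6 HP lists, with 10943 peaks. The other HP lists held 1 peak each for RUNX1 (Itgb3, 7.79% of coding genes), GATA2 (Itga2b, 3.36%) and GFI1B (Itgb3, 11.8%), and none for GATA1 (1.75%). No peak was found at any of the 8 genes for RUNX1 in MAC (0.478% of coding genes), GATA2 in HB (0.363%) or ELK4 in MES (4.66%). Most coding genes were likewise without a peak in these lists.

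Binding at start sites was counted separately. A TSS was called bound when a peak centre lay within 2 kb of the start of a coding transcript, and distances are given from the nearest such start of the gene. PU.1 was bound at the TSS of all 8 genes in MAC, against 52.4% of coding genes. C/EBPβ was bound there in MAC at 7 genes, all but Itga2b, against 39.1%. This count depends on the 2 kb limit, since within 500 bp C/EBPβ had a centre at 2 genes (Itgal and Itgb1), against 25.3% of coding genes, and PU.1 in MAC at 6, against 39.5%. In HP, PU.1 was bound at the TSS of 5 genes (Itgal, Itgb2, Itga4, Itga2b and Itgb3), against 10.5% of coding genes, and GATA2 at that of Itga2b, against 0.804%. Within 500 bp the PU.1 count in HP was 3 (Itgal, Itgb2 and Itga2b), against 6.19% of coding genes. Itgam, the CD11b gene, was not among those bound at the TSS in HP.

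**Figure D2:**
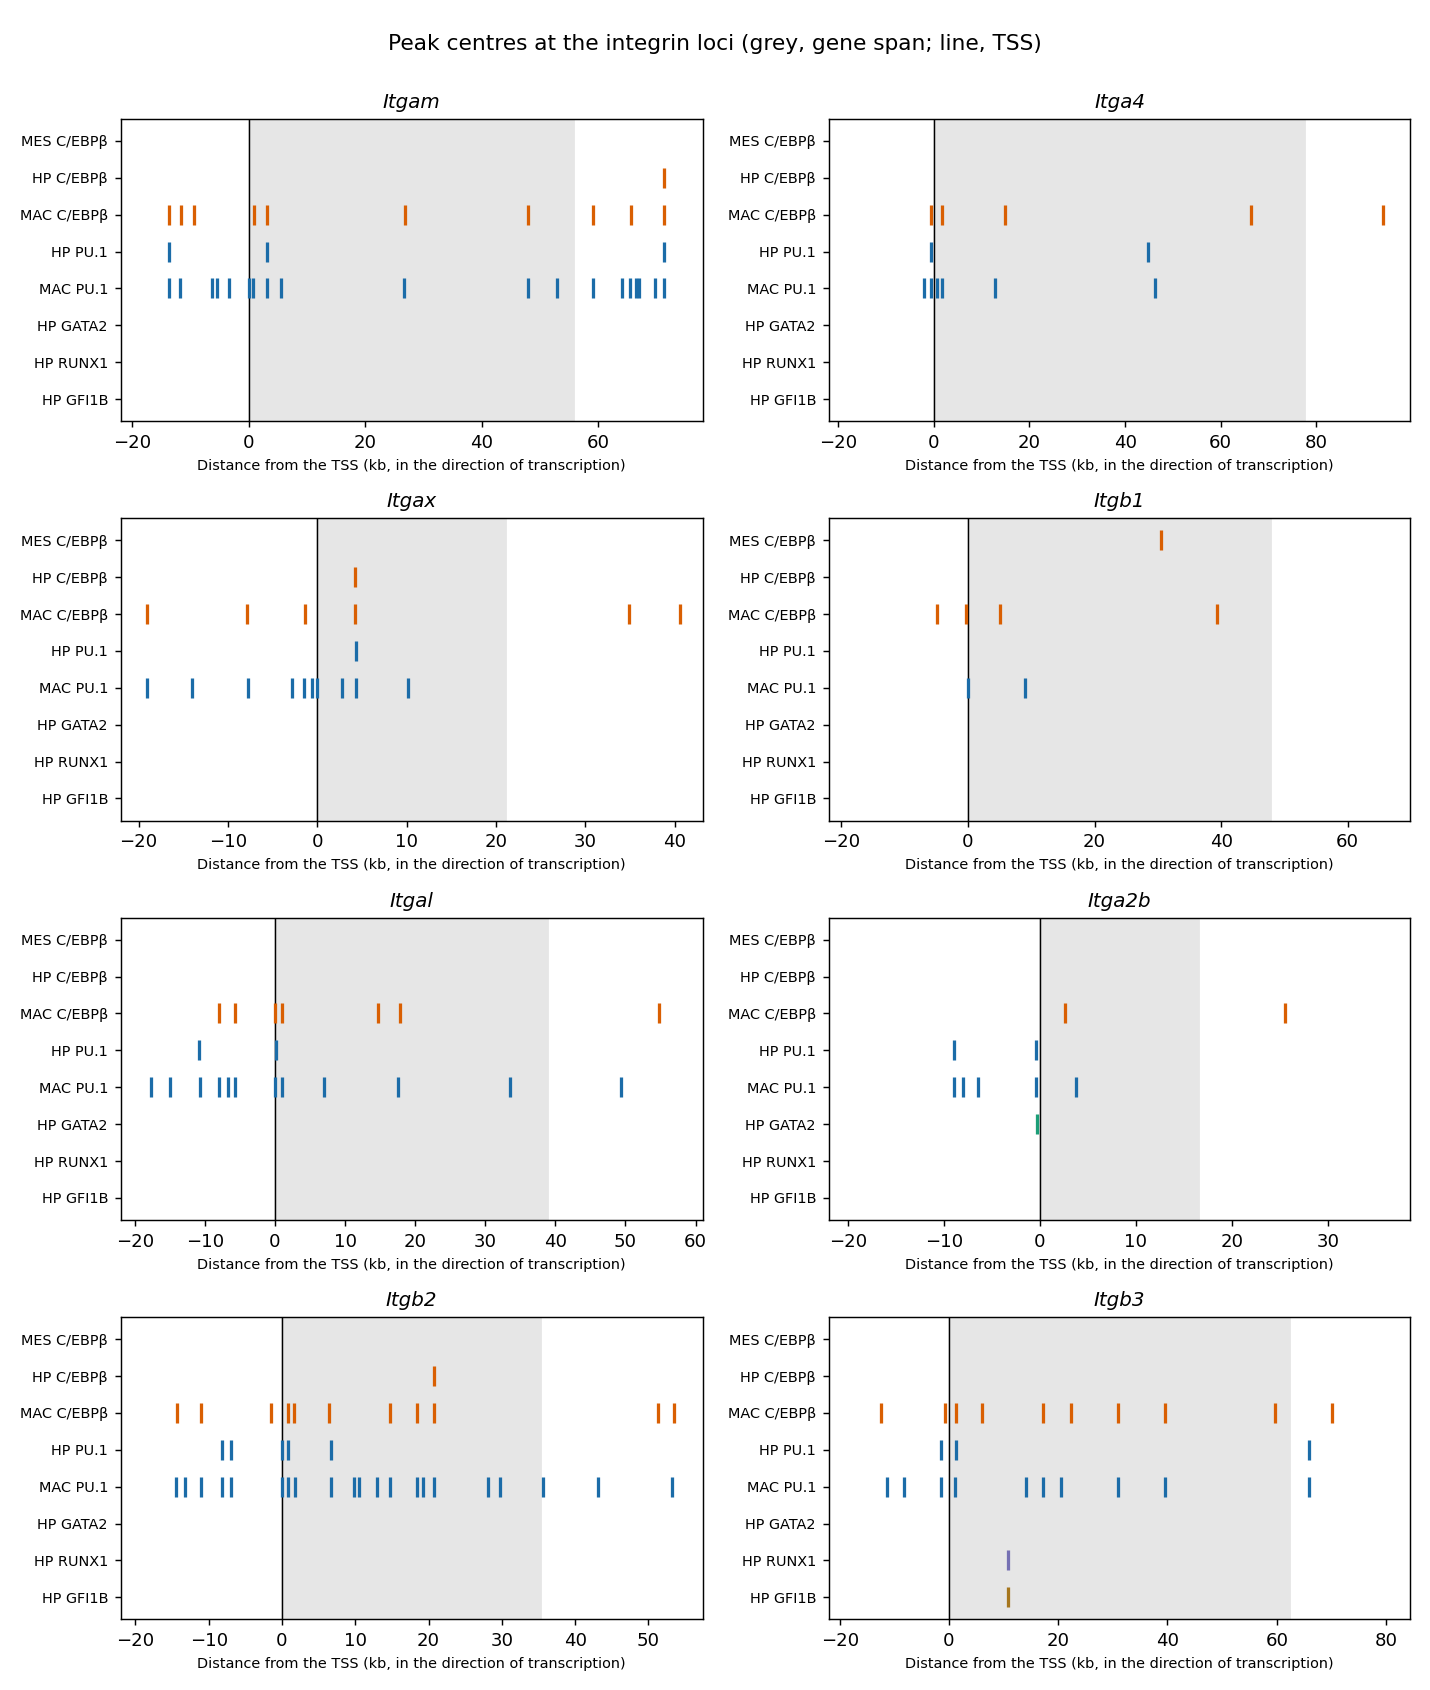
Positions of peak centres along each integrin gene, as distance from the TSS in kb in the direction of transcription, for the 8 lists with a peak at any of the genes (rows). The grey area is the gene span and the vertical line the TSS, and the scale differs between panels. MAC PU.1 has a centre within 2 kb of the TSS in all 8 panels.

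In MAC the leukocyte integrin genes had the 4 highest PU.1 densities of the 8 genes. Itgb2, which encodes the beta chain CD18, lies on chromosome 10 (77530329 to 77565708, plus strand). It had 1 C/EBPβ and 5 PU.1 peaks in HP, and 11 C/EBPβ and 21 PU.1 peaks in MAC. Its window also holds Fam207a and Pttg1ip. Of the 21 MAC PU.1 peaks, 11 were nearest to a TSS of Itgb2, and of the 11 MAC C/EBPβ peaks 7 were. The others lay nearer to a neighbouring gene, as did the 2 HP PU.1 peaks centred at -8168 and -6889 bp from the TSS (upstream), which were nearest to Fam207a.

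The remaining 3 HP PU.1 peaks of Itgb2 were centred 33 bp upstream of the TSS and 763 and 6655 bp inside the gene, in an intron. All 5 positions were bound by PU.1 again in MAC. The promoter peak moved by little, with its MAC centre 5 bp from the TSS, and both peaks hold the PU.1 word, which lies 9 bp after the HP centre and 29 bp before the MAC centre. C/EBPβ was present in MAC in introns 855 and 6410 bp from the TSS, overlapping PU.1 of both stages. Its own single HP peak was centred 20716 bp inside the gene. There the MAC C/EBPβ centre lay 2 bp away, the MAC PU.1 centre 39 bp away, and the C/EBP word of the Itgb2 element printed above lay at the centre of the peak.

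Itgam lies on chromosome 7 (128062640 to 128118491, plus strand), and Itgax, which encodes CD11c, a marker of dendritic cells and of some macrophages, starts 11034 bp after its end. The Itgam window had 3 PU.1 peaks in HP and 19 in MAC. For C/EBPβ it had 1 in HP and 10 in MAC. The nearest coding TSS was that of Itgam for 10 of the 19 MAC PU.1 peaks and for 6 of the 10 MAC C/EBPβ peaks, and that of Itgax for the others. No other list had a peak there. In HP the PU.1 peaks of Itgam were centred 13708 bp upstream of the TSS, 3129 bp inside the gene in an intron, and within Itgax. The first of these elements was bound again in MAC by PU.1, 13695 bp upstream, and by C/EBPβ, 13764 bp upstream. The intronic element was bound in MAC by PU.1 at 3138 bp and by C/EBPβ at 3140 bp, so that 3 centres lay within 11 bp.

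The TSS of Itgam had a PU.1 peak in MAC, centred 13 bp inside the gene, and no peak of any HP list. That peak held none of the consensus words searched for. A further MAC PU.1 peak lay at 749 bp, overlapped by a C/EBPβ peak at 960 bp. Upstream of the gene, MAC PU.1 peaks at 3385, 5436 and 6270 bp from the TSS were not overlapped by C/EBPβ. The CD11b gene was thus bound by PU.1 in CD41+ progenitors at a distal and an intronic element. Of the HP and MAC PU.1 lists, only that of CD11b+ macrophages had a peak at its promoter. This was the usual case, since 12.8% of the whole MAC PU.1 list overlapped a peak of the shorter HP list. An HP PU.1 centre lay within 2 kb of a TSS at 10.5% of coding genes.

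Itgax (chromosome 7, 128129526 to 128150657, plus strand) had 1 C/EBPβ and 1 PU.1 peak in HP, and 6 C/EBPβ and 10 PU.1 peaks in MAC. The nearest coding TSS was that of Itgax for all 10 MAC PU.1 peaks and for 4 of the 6 MAC C/EBPβ peaks. The other MAC C/EBPβ peaks were nearest to Itgad. Both HP peaks lay at 1 element, with centres 4260 bp (C/EBPβ) and 4305 bp (PU.1) from the TSS. This was the single region among 100 at the 8 genes that was bound in 4 lists. The C/EBPβ centre of MAC was 4 bp from that of HP, and the PU.1 centre of MAC was at 4298 bp. The region holds the C/EBP word and the paired PU.1 words printed above, the C/EBP word 5 bp before the HP C/EBPβ centre on the plus strand and the PU.1 words 34 and 47 bp after it, and a further PU.1 word 63 bp after it. The window of Itgam reaches this region, so that the HP C/EBPβ peak counted for Itgam is the same peak. At the Itgax TSS, MAC PU.1 was centred 38 bp upstream, and C/EBPβ 1386 bp upstream.

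Itgal encodes CD11a, the alpha chain of the integrin of lymphocytes and other leukocytes that binds ICAM proteins, and lies on chromosome 7 (127296139 to 127335137, plus strand), 727 kb before Itgam. It had no C/EBPβ peak in HP and 7 in MAC. PU.1 had 2 peaks in HP and 12 in MAC. The nearest coding TSS was that of Itgal for 8 of the 12 MAC PU.1 peaks and for 6 of the 7 MAC C/EBPβ peaks. The other MAC peaks were nearest to Sephs2 or Zfp768. The HP PU.1 peaks were centred 10793 bp upstream and 111 bp after the TSS, and both were bound in MAC. Over the TSS, PU.1 was at 12 bp and C/EBPβ at 50 bp in MAC, and the PU.1 word lay 25 bp before the MAC PU.1 centre on the plus strand. Unlike Itgam and Itgax, Itgal was therefore bound by PU.1 at its TSS in progenitors as well as in macrophages.

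Density took the length of the windows into account. In MAC, Itgb2 had 1.46 C/EBPβ and 2.79 PU.1 peaks per 10 kb of window, and 1.51% and 0.473% of coding genes reached these densities. Itgam had 1.04 and 1.98 peaks per 10 kb (reached by 7.38% and 3.63% of genes), Itgax 0.981 and 1.64 (8.71% and 7.56%) and Itgal 0.886 and 1.52 (12.1% and 9.65%). The median of all coding genes was 0.317 for C/EBPβ and 0.524 for PU.1. All 4 leukocyte integrin genes were thus above the median for both factors, although the windows of Itgam and Itgax share peaks. Itga2b (0.353 and 0.884) and Itgb3 (0.976 for each factor) were above both medians too, so this was not particular to the leukocyte integrins. In HP, the PU.1 density of Itgb2 was 0.663 peaks per 10 kb, reached by 0.840% of genes, that of Itga2b 0.353 (6.56%), that of Itgam 0.313 (7.89%), that of Itgb3 0.293 (8.58%), that of Itgal 0.253 (9.69%), that of Itga4 0.170 (22.6%), that of Itgax 0.164 (23.5%) and that of Itgb1 0. The densities of Itga2b and Itgb3 in HP thus lay between those of Itgax and Itgb2, the lowest and highest of the leukocyte integrin genes. The order in MAC holds for the windows of 20 kb, and counts by the nearest TSS, which reach beyond them, are given with Itga4 and Itgb1.

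**Figure D3:**
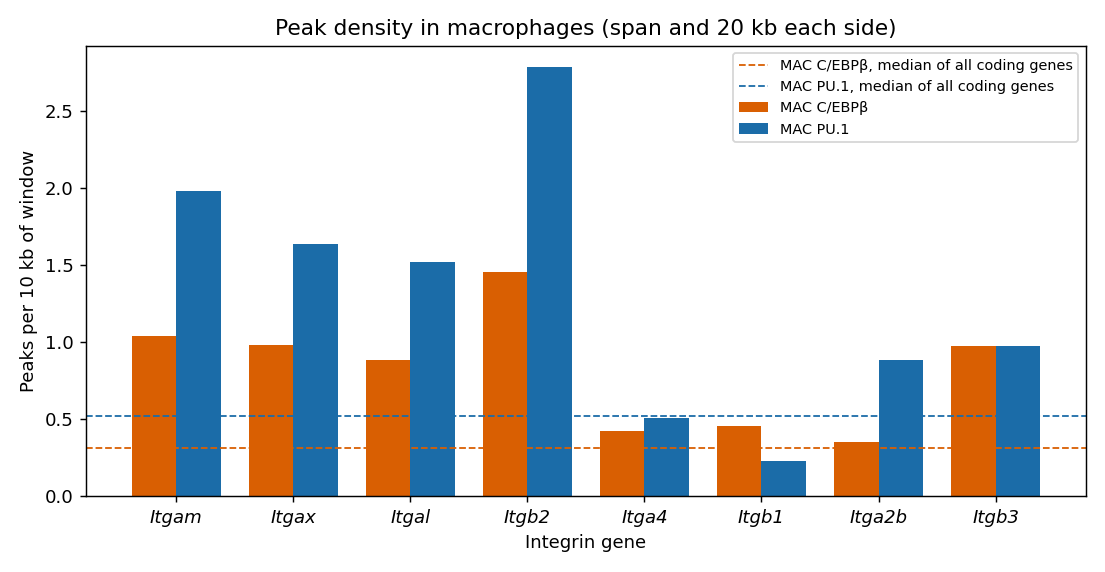
Peaks per 10 kb of window for C/EBPβ (orange) and PU.1 (blue) in macrophages at each integrin gene, with dashed lines for the medians of all coding genes (0.317 and 0.524). Bars are single lists without error bars because each group had 1 list. Itgb2 has the highest bars (1.46 and 2.79), and Itga4 and Itgb1 lie below the PU.1 median (0.510 and 0.227).

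Itga4 and Itgb1 encode the chains of the receptor by which blood progenitors and leukocytes bind VCAM1. Itga4 (chromosome 2, 79255426 to 79333114, plus strand) had 2 PU.1 peaks in HP, and 5 C/EBPβ and 6 PU.1 peaks in MAC. One of the HP peaks was centred 562 bp upstream of the TSS, where MAC PU.1 (592 bp upstream) and MAC C/EBPβ (680 bp upstream) overlapped it and where the PU.1 word of the Itga4 element printed above lies. The other was centred 44743 bp inside the gene and was the only one of the 17 HP PU.1 peaks without an overlapping MAC PU.1 peak. The nearest MAC PU.1 peak there was centred at 46236 bp. In MAC the densities of Itga4 were 0.425 for C/EBPβ and 0.510 for PU.1, which 40.4% and 50.7% of coding genes reached.

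Itgb1 encodes the beta chain shared by many integrins of most cell types and lies on chromosome 8 (128685654 to 128733579, plus strand). It was the least bound of the 8 genes, with 7 peaks in all. It had 4 C/EBPβ and 2 PU.1 peaks in MAC and none in HP. Its densities in MAC were 0.455 for C/EBPβ and 0.227 for PU.1, reached by 37.3% and 68.7% of coding genes. The TSS had PU.1 at 7 bp and C/EBPβ 303 bp upstream in MAC. The single MES peak, of C/EBPβ, was centred 30566 bp inside the gene over an exon, was bound in no other list and held no C/EBP word, which 43.2% of the MES C/EBPβ peaks held.

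Peaks beyond the windows were counted by the nearest coding TSS in the lists of MAC C/EBPβ, MAC PU.1 and HP PU.1. The TSS of Itgb1 was the nearest coding TSS of 15 MAC PU.1 peaks, of which 13 lay outside the window at 21.0 to 182 kb. It was the nearest also for 12 MAC C/EBPβ peaks, 8 of them outside, and for 2 HP PU.1 peaks, both outside at 30.6 and 182 kb. For Itga4, 11 of 17 such MAC PU.1 peaks lay outside the window at 27.3 to 175 kb. By the nearest TSS alone, Itga4 (17) and Itgb1 (15) thus had more MAC PU.1 peaks than Itgb2 (11), Itgam (10) and Itgax (10). At the other 6 genes every peak of these 3 lists with the integrin TSS as its nearest lay inside the window. The low counts of Itgb1 thus refer to the gene and 20 kb around it and not to the sequence beyond.

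The CD41 gene Itga2b lies on chromosome 11 (102453297 to 102469883, minus strand) in a window shared with Fam171a2, Gpatch8 and Grn. It had 10 peaks, namely 2 of PU.1 and 1 of GATA2 in HP and 2 of C/EBPβ and 5 of PU.1 in MAC. The HP GATA2 peak was centred 300 bp upstream of the TSS, and the HP PU.1 peak 362 bp upstream, 62 bp from it. MAC PU.1 was centred 366 bp upstream. The second HP PU.1 peak lay 8985 bp upstream and was bound in MAC at 8987 bp upstream. Neither element was overlapped by C/EBPβ in MAC, whose peaks lay 2585 bp inside the gene and downstream of it. Of the C/EBPβ peaks of Itga2b in MAC, 0 of 2 overlapped a PU.1 peak, with an exact Clopper-Pearson interval of 0 to 84.2% that includes the share of the whole list, 42.5%. Densities in MAC were 0.353 for C/EBPβ and 0.884 for PU.1, reached by 47.1% and 30.5% of coding genes.

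Within the element upstream of Itga2b the PU.1 word lay at -366 bp from the TSS and the GATA word TGATAAG at -320 bp. The GATA words searched for in all lists, AGATAAG and AGATAAC, were not in this peak, and the form with T in the first place was added after the sequence had been seen. Of the 530 GATA2 peaks of HP, 46.6% held the first form, 23.2% the added form and 61.1% either of them. In windows of the same length 2 kb to each side the shares were 8.49%, 7.26% and 14.6%. Of the 97 GATA2 peaks of HB, none of which lay at the 8 genes, 6.19% held the first form. Of the 14 lists, those of C/EBPβ alone cover both the CD41- HE cells and the CD41+ HP cells, and neither had a peak at Itga2b. Factors outside these 14 lists were not analysed here.

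Itgb3 encodes CD61, the partner of CD41, and lies further along chromosome 11 (104608000 to 104670476, plus strand). It was bound in 5 lists, the most of the 8 genes. It had 3 PU.1, 1 RUNX1 and 1 GFI1B peaks in HP, and 10 C/EBPβ and 10 PU.1 peaks in MAC. RUNX1 and GFI1B lay together in an intron, with centres 10801 and 10798 bp from the TSS, and neither MAC list nor PU.1 in HP had a peak there. The RUNX word printed above lay 22 bp before the RUNX1 centre on the plus strand and was present in 26.2% of all HP RUNX1 peaks. The GFI1B word AATCNCNGC (N is any base) was not in the GFI1B peak, and it was found in 24.4% of that list.

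The PU.1 peaks of Itgb3 in HP were centred 1524 bp upstream of the TSS, 1296 bp inside the gene and 65945 bp from the TSS beyond its end, nearest to Efcab13, and all 3 were bound again in MAC. The intronic element at 1296 bp was also bound by C/EBPβ in MAC, at 1270 bp. Densities in MAC were 0.976 for each factor, which 8.89% of coding genes reached for C/EBPβ and 26.1% for PU.1. PU.1 peaks in both stages were not particular to Itga2b and Itgb3, since 7 of the 8 genes had them, and the GATA2, RUNX1 and GFI1B peaks of the pair were single peaks in lists with a peak at 3.36%, 7.79% and 11.8% of coding genes.

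Merging overlapping peaks gave 100 regions at the 8 genes. Of these, 61 were bound in 1 list, 29 in 2, 9 in 3 and 1 in 4. In the macrophage lists, 30 regions were bound by both factors, 21 by C/EBPβ without PU.1 and 46 by PU.1 without C/EBPβ, and 3 by neither. The last 3 were the Itgb1 element of MES, the Itgb3 element of RUNX1 and GFI1B and the intronic PU.1 element of Itga4. At Itgam 9 of 20 regions and at Itgb2 9 of 23 were bound by both factors, at Itgb3 4 of 17, and at Itga2b 0 of 7. The numbers were 5 of 14 at Itgal, 4 of 12 at Itgax, 2 of 10 at Itga4 and 1 of 6 at Itgb1. Regions shared by Itgam and Itgax count at both, and regions were not merged over all coding genes.

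**Figure D4:**
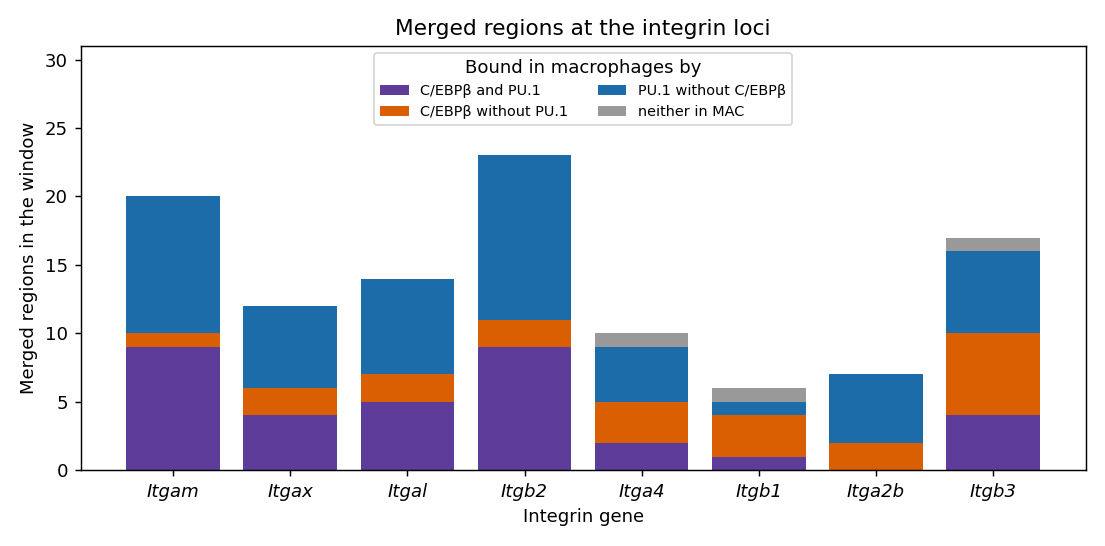
Merged regions in the window of each integrin gene, stacked by binding in macrophages to both C/EBPβ and PU.1 (purple), C/EBPβ without PU.1 (orange), PU.1 without C/EBPβ (blue) or neither (grey). Regions shared by Itgam and Itgax count at both genes. Purple makes up 9 of 20 regions at Itgam, the largest share, and 0 of 7 at Itga2b, the smallest.

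Co-binding was counted in both directions, since the MAC lists differ in length. Of the 51 MAC C/EBPβ peaks at the 8 genes, 30 overlapped a MAC PU.1 peak, 58.8% (exact Clopper-Pearson 95% interval 44.2 to 72.4%), against 42.5% of the whole list. Of the 76 MAC PU.1 peaks, 30 overlapped C/EBPβ, 39.5% (28.4 to 51.4%), against 28.5% of the whole list. Such intervals cover counting error only, and the peaks of 1 gene are not independent. For C/EBPβ the share was 76.7% (57.7 to 90.1%, 23 of 30 peaks) at Itgam, Itgax, Itgal and Itgb2 and 33.3% (14.6 to 57.0%, 7 of 21) at the other 4 genes. In the other direction the shares were closer, with 43.4% (29.8 to 57.7%, 23 of 53) of the MAC PU.1 peaks at those 4 genes and 30.4% (13.2 to 52.9%, 7 of 23) at the others, and these intervals overlap widely. The part of the larger number of PU.1 peaks at the leukocyte integrin genes in the C/EBPβ shares was not tested. Over the 30 shared peaks the distance between centres had a median of 39.5 bp and ranged from 0 to 310 bp. Both MAC lists were called against an input library of the same stage.

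PU.1 peaks of progenitors were mostly found again in the macrophage list. Of the 17 in HP, 16 overlapped a MAC PU.1 peak, 94.1% (71.3 to 99.9%), and 97.0% of the whole HP list did. In the other direction 16 of the 76 MAC peaks, 21.1% (12.5 to 31.9%), overlapped one of HP, against 12.8% of the whole MAC list. The centres were close, with a median distance of 12.5 bp and a range of 1 to 263 bp over the 16 pairs. C/EBPβ of MAC was present at 8 of the 17 HP PU.1 peaks, 47.1% (23.0 to 72.2%), against 36.0% of the list. Both C/EBPβ peaks of HP overlapped one of MAC, as did 91.4% of that list.

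The sequences under the peaks were searched on both strands for the words of the factors. The PU.1 word shares the letters GGAAGT with the ELK4 word CCGGAAGT, which was in 2.63% of the MAC PU.1 peaks at the 8 genes and in 1.64% of that list. The PU.1 word GAGGAAGT was present in 17 of 76 MAC PU.1 peaks at the 8 genes, 22.4% (13.6 to 33.4%), in 3.29% of windows of equal length 2 kb to each side and in 24.4% of the list. In HP it was in 9 of 17 PU.1 peaks, 52.9% (27.8 to 77.0%), in 0 of 34 flanking windows and in 42.1% of the list. The C/EBP words TTGCGCAA, TTGCACAA, TTGCATAA and TTGCGTAA were in 8 of 51 MAC C/EBPβ peaks, 15.7% (7.02 to 28.6%), in 0.980% of flanks and in 14.9% of the list. Both HP C/EBPβ peaks held one, as did 38.3% of that list. Of the C/EBPβ lists without a peak at the 8 genes, that of HB held one in 44.3% of peaks and that of HE in 13.6%. For the 2 MAC lists and for HP PU.1, the share in the whole list lay within the interval of the integrin peaks.

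Words of other factors were also counted. The RUNX word was in 7 of the 17 HP PU.1 peaks at the 8 genes, 41.2% (18.4 to 67.1%), in 11.8% of flanks and in 12.6% of the whole list, which is below the interval. These 7 peaks lay at Itgam (1), Itgb2 (3), Itga2b (1) and Itgb3 (2). Of 26 pairs of list and word with a peak at the 8 genes, this was the 1 whose share in the whole list lay outside the interval. The RUNX word was in 15.8% of the MAC PU.1 peaks at the 8 genes against 10.3% of the list, and in 17.6% of the MAC C/EBPβ peaks against 11.1%, both within their intervals. In the MAC C/EBPβ peaks the PU.1 word was in 15.7%, in 1.96% of flanks and in 8.03% of the list. The AP-1 word was in 18.4% of the MAC PU.1 peaks, in 11.2% of flanks and in 15.8% of the list. A word is a run of letters and does not show that a factor was bound there.

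Other genes of integrin biology were counted from fixed lists. Among 13 other alpha chains, C/EBPβ was bound in MAC at 12, PU.1 in HP at 10 and PU.1 in MAC at 13. Among 5 other beta chains the numbers were 5, 4 and 5. For 11 activators and adaptors of integrins, among them talins, kindlins and RAP1, they were 10, 8 and 10, and for 11 ligands 8, 7 and 11. The 8 genes described here had 8, 7 and 8. The background shares of all coding genes (73.8%, 38.2% and 79.1%) apply to all of these, and differences between these gene lists were not tested. The median number of MAC PU.1 peaks was 10 at the 8 genes, 7 at the other alpha chains and 8 at the other beta chains. Itgb5 had 28, more than Itgb2 (21), in counts that do not take window length into account.

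The genes bound in the most lists of each group were as follows. Itgb7, the beta chain of the gut-homing integrins, had 24 peaks in 11 lists. Itga5, the fibronectin receptor chain, and Itga9 had peaks in 5 lists each. Of the activators, Tln2, a talin that links integrins to actin, was bound in 6 lists, and Fermt1, a kindlin of epithelial cells, in none. Of the ligands, Icam1, which binds leukocyte integrins, and Madcam1, which binds the integrin of Itga4 and Itgb7, were bound in 5 lists each.

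The genes closest in pattern to the sorting markers were found by the Euclidean distance of log2(peaks + 1) over the 14 lists. For Itgam these were Lrrk1 (distance 0.154), Sirpa (0.197) and Il4ra (0.285), and 770 of 21772 other coding genes, 3.54%, had peaks in exactly the same 4 lists. The HP C/EBPβ peak in the Itgam pattern lay inside Itgax, and by the nearest coding TSS Itgam had 0 peaks in that list. Sirpa, the inhibitory receptor of myeloid cells for CD47, had 1 C/EBPβ and 3 PU.1 peaks in HP and 11 C/EBPβ and 17 PU.1 peaks in MAC. For Itga2b the closest were Lrrn2, with the same count in every list, Trim38 (0.263) and 1810009A15Rik (0.415), and 115 of 21770 genes, 0.528%, had peaks in the same 4 lists. The pattern of the CD41 gene was thus the less common of the pair. It includes the HP GATA2 list of 530 peaks, with a peak at 3.36% of coding genes, where that of Itgam includes HP C/EBPβ (14.8%). How common a pattern is depends on the lengths of its lists, so the difference is not a trait of the CD41 gene.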

How the data were processed

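The deposited files hold peak positions (first and last base, in bp) and no score. The authors describe trimming reads with CutAdapt. They mapped reads to mm10 (GRCm38) with Bowtie, discarded those without a unique position and duplicates (Picard), called peaks with MACS against the input of the stage at a threshold judged by eye, refined them with polyPeak and fixed their width at 400 bp. The submitters' processing notes name Bowtie and bedtools. Tool versions are not given in the sources used here. For the HE cells, carrier mRNA and histone were added. Depth was not used, so the precision of single peaks is unknown.

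Groups were taken from the sample labels. Genes, exons and TSSs came from RefSeq GRCm38.p6. All 8 genes were named, with the 3 genes of the most similar pattern for Itgam and Itga2b, the genes of each fixed list bound in the most lists, and the regions bound in the most lists or over those 2 TSSs. The sequences printed for Itgb3 and Itga4 were chosen after their values were seen. The genes, gene lists and words were chosen with earlier results of these data known. Shares carry exact Clopper-Pearson 95% intervals. A peak was assigned to a gene at an overlap of at least 1 bp. Alternatives were other window widths, peak centres, the nearest coding TSS, stricter overlaps and TSS limits, the central 200 bp and omission of the 2 longest lists. Python 3.11.15, NumPy 2.4.6, SciPy 1.17.1 and Matplotlib 3.10.9 were used, and the programs were tested on simulated data.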

Additional observations from a re-analysis of the deposited data

How the results depend on the processing

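The 30 combinations of gene and list with a peak became 27 without any extension of the gene span, 29 at 10 kb, 35 at 50 kb, 30 by peak centre, 30 by the nearest coding TSS, and 14 without the MAC lists of C/EBPβ and PU.1. The number of peaks, 150 at 20 kb, depended on the window, with 83 in the gene span alone, 126 at 10 kb and 229 at 50 kb, and it was 161 by the nearest coding TSS. Combinations bound at a TSS fell from 21 within 2 kb to 18 within 1 kb and 12 within 500 bp. The share of MAC C/EBPβ peaks on MAC PU.1, 58.8%, was 43.1% when centres had to lie within 100 bp, 47.1% at an overlap of 200 bp, 67.9% in the gene span and 51.9% at 50 kb. The share of the whole list, 42.5%, was counted at an overlap of 1 bp only. It cannot be set beside the values of the stricter overlap rules. For HP PU.1 on MAC PU.1, 94.1%, the range was 87.5 to 95.7%. The PU.1 word (22.4%) ranged from 21.1 to 26.2% and the C/EBP word (15.7%) from 13.7 to 21.4%. Counting the GATA words TGATAAG and TGATAAC, an alternative chosen after seeing the data, changed the GATA2 peak at Itga2b from 0 to 1 word. The causes were not tested beyond the fewer or more peaks that each setting admits. No paired analysis was possible because every group had 1 list. For the same reason no list could be left out within a group, and a stricter threshold could not be applied because the lists hold no scores.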
